A study of Mus musculus with 6 samples.

Results

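The mouse genes for Wnt ligands, Frizzled receptors and the secreted Wnt antagonists of the SFRP, Dickkopf and WIF1 families were followed in cumulus cells before and after the ovulatory hormone. They were chosen by name (Wnt, Fzd, Sfrp and Dkk with a number, Frzb and Wif1) among probe sets annotated with exactly 1 gene, and the brightest probe set over all 6 samples stood for each gene. This gave 39 of the 18194 genes measured, namely 19 Wnt ligands, 10 Frizzleds, 5 SFRP genes including Frzb, 4 Dickkopf genes and Wif1. Each of the 39 was tested, without a filter on dim genes.

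Cumulus cells are the granulosa-derived cells that enclose the oocyte in the antral follicle. Both groups came from wild-type mice that were 21 days old when they received 5 IU of eCG, a gonadotropin that makes follicles grow, and 46 h passed before the next step. In the hCG-0h group no hCG was given, and in the hCG-6h group 5 IU of hCG, which acts like the ovulatory surge of luteinising hormone, was left to act for 6 h. Each group had 3 samples, each from the cells of 50 cumulus-oocyte complexes and each on a single-colour array of its own. For hCG-6h samples 2 and 3 the description field speaks of 7 h and 8 h, while the titles give 6 h, and the age field gives 23 days. How many mice went into a sample, and whether samples came from separate mice, is left unsaid in the labels, so p-values measure only the spread between samples, which may be technical. There was no group kept for the same extra time without hCG, so hCG and elapsed time cannot be told apart. In such bulk samples fewer cells of a kind and less RNA per cell cannot be told apart either.

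Wnts are secreted, lipid-modified signalling proteins that bind the cysteine-rich domain of Frizzled receptors. With the co-receptors LRP5 and LRP6 they stop the destruction of beta-catenin, which then acts with TCF/LEF factors in the nucleus, and other Wnts act through cell polarity or calcium. SFRPs carry a Frizzled-like domain and bind Wnts outside the cell, WIF1 also binds Wnts, and Dickkopf proteins bind LRP5 and LRP6. In the rodent ovary Wnt4 is needed for formation of the female gonad, Fzd4 is needed for the corpus luteum, and Sfrp4 is known from luteinising granulosa cells.

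Levels are the deposited log2 values, and a change is the hCG-6h mean minus the hCG-0h mean on that scale. A gene is said to have risen or fallen where limma's adjusted p, over all 18194 genes, was under 0.05. Of all genes, 21.3% passed in either direction, 10.8% as higher and 10.5% as lower. The median change over all genes was 0.00667. Mean levels under 6.08, the bound of the lowest 1 in 3 genes, are called dim, and folds there can be understated by background signal. The array medians lay between 6.43 and 6.46, a likeness that the normalisation of the deposited values brings about by itself. All 16 measured granulosa and cumulus markers reached a level of 8 in some sample, and 4 of them rose and 7 fell (median -0.67). Inha, an inhibin subunit, stayed between 13.36 and 13.49, while Ptx3, a matrix gene of the expanding cumulus, rose by 7.91 and Fshr, the FSH receptor, fell by 3.22. Of 17 oocyte markers 15 lay under 6.08 on average, with Zp3 at 4.63 to 4.95, and the list mean was 5.05 to 5.31 at hCG-0h and 5.29 to 5.33 at hCG-6h. Ooep, an oocyte gene, rose from 6.53 to 8.47, and its part in the results below was not tested.

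The antagonist genes Sfrp4 and Sfrp2 rose most, Wnt2 and Wnt11 rose among the ligands, and Fzd8, Fzd9, Fzd1 and Fzd7 rose among the receptors. Wnt5b, Frzb and Fzd3 fell. In all, 8 of 39 members rose, 3 fell and 28 did not pass, or 28.2% called against 21.3% of all genes. The share that rose was 20.5% and the share that fell 7.69%. The groups did not overlap in 16 of 39 members (41%) against 37.9% of all genes. The median change of the members was 0.08. Of the 24 members brighter than 6.08 on average, 10 were called, beside 29.2% of all genes that bright. Of the 15 dimmer members 1 was called, beside 5.44%. That split uses the mean over all 6 samples, so it is not independent of the changes. Sfrp4, Sfrp2, Wnt2 and Fzd9 had hCG-0h means of 5.67, 4.80, 5.37 and 5.95 and count as brighter only through their hCG-6h levels. Dim members include Wif1, Dkk1, Dkk2, Fzd10 and 9 of the 19 Wnt ligands, which stayed under 6.08 in every sample.

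**Figure D1:**
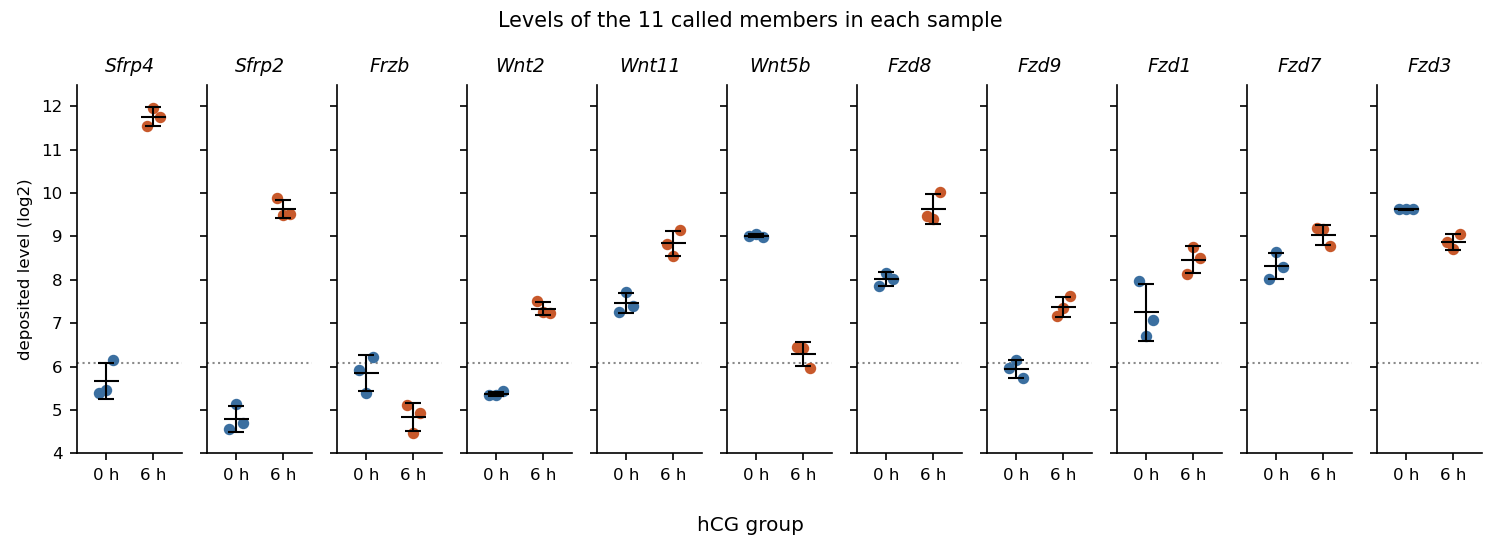
Deposited log2 level (vertical axis) of each of the 11 members that passed the test, 3 samples per group, with hCG-0h in blue and hCG-6h in orange. Black bars are mean and SD, and the dotted line is 6.08, the bound of the dimmest 1 in 3 genes. The groups do not overlap in any of the 11 genes; Sfrp4 and Sfrp2 show the widest gaps, and levels of different genes come from different probe sets and are not compared.

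Among the SFRP genes, Sfrp4 went from 5.40, 5.45 and 6.15 in hCG-0h samples 1, 2 and 3 to 11.54, 11.97 and 11.76 in the hCG-6h samples. It was dim or close to dim before hCG and bright in every sample afterwards. The change of 6.09 ± 0.23 (SE), or 68.1-fold (95% confidence interval 5.55 to 6.63 on the log2 scale, adjusted p = 2.09e-05), ranked 7 by size among all genes. Sfrp2 stood at 4.56, 5.14 and 4.70 before hCG and at 9.88, 9.49 and 9.52 after it. All 3 hCG-6h samples lay far above the highest hCG-0h sample, and the change of 4.83 ± 0.19 (28.4-fold, adjusted p = 2.4e-05) ranked 27 among all genes. Both genes were dim or nearly so at hCG-0h. Leaving out any sample in turn kept Sfrp4 between 5.96 and 6.33 and Sfrp2 between 4.71 and 5.00.

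Frzb, also known as Sfrp3, moved the other way. Its levels were 5.93, 5.40 and 6.21 at hCG-0h and 5.11, 4.48 and 4.92 at hCG-6h, dim in nearly all samples and separated by a gap of 0.29 between the nearest samples. It fell by 1.01 ± 0.25 (SE, adjusted p = 0.0299), and its other probe set fell too, by 0.79. The call was lost without hCG-0h sample 1, hCG-0h sample 3, hCG-6h sample 2 or hCG-6h sample 3 (adjusted p from 0.0713 to 0.0893) and kept without hCG-0h sample 2 or hCG-6h sample 1. Sfrp1 and Sfrp5 did not pass. Sfrp1 read 7.15, 6.78 and 7.03 against 7.66, 7.23 and 7.48, a difference of 0.47 (interval 0.10 to 0.84, adjusted p = 0.0793) without overlap of the groups. Of its 5 probe sets, 3 lay above and 2 below 0, between -0.23 and 0.47. Sfrp5 differed by 0.09 (interval -0.14 to 0.32).

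Markers of stromal, theca and other cells were set beside these genes. Of 13 theca and interstitial markers, 1 rose and 2 fell (23.1% called, beside 21.3% of all genes). The mean of the list was 6.79 to 7.02 at hCG-0h and 6.64 to 6.75 at hCG-6h. On average 6 of the 13 were dim, and 3 reached a level of 8 in some sample. Lum, a stromal proteoglycan, read 3.13 to 3.38 over all 6 samples, and Cyp17a1, the androgen-making enzyme of theca, 5.42 to 6.20. The marker that rose was Hsd3b1, a steroid dehydrogenase, by 0.50, from a bright mean of 12.45 to 12.95. Aldh1a1 fell by 2.16, from 9.44 to 7.28, and Ptch1 by 0.92, from 9.96 to 9.04. Among further markers, 0 of 12 endothelial, 1 of 10 immune, 1 of 14 epithelial and 1 of 3 red blood cell genes passed. The shares called were 0%, 10%, 7.14% and 33.3%, beside 21.3% of all genes. The immune marker Fcer1g, the epithelial Wt1 and the red cell Alas2 fell by 0.88, 1.42 and 1.35. Endothelial Cdh5 was 1.63 higher without passing (adjusted p = 0.053), and epithelial Krt8 read 8.98 to 10.16. The part of all these markers in the changes of the SFRP genes was not tested.

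Of the 19 Wnt ligands, 2 rose, 1 fell and 16 did not pass (15.8% called, beside 21.3% of all genes). Wnt2, a ligand best known from lung and placenta that acts through beta-catenin, stood at 5.34, 5.34 and 5.43 before hCG and at 7.51, 7.25 and 7.24 after it. It was dim in all hCG-0h samples, with little spread in either group, and rose by 1.96 ± 0.11 (SE), or 3.9-fold (adjusted p = 9.29e-05). Wnt11, a ligand of cell polarity signalling, read 7.26, 7.72 and 7.40 and then 8.82, 8.55 and 9.14. Its lowest hCG-6h sample was 0.83 above its highest hCG-0h sample, and it rose 2.6-fold (1.38 ± 0.19, adjusted p = 0.00304).

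Wnt5b, a ligand of the beta-catenin-independent kind, was the ligand that fell. It read 9.01, 9.06 and 8.98 at hCG-0h and 6.46, 6.44 and 5.97 at hCG-6h, from well above to about the dim bound. The level dropped by 2.73 ± 0.15 (SE), or 6.62-fold lower (interval -3.09 to -2.36, adjusted p = 7.98e-05), rank 236 by size among all genes. The probe set used here carries the suffix that the array maker gives to sets with probes that can also bind other transcripts. A further probe set without that suffix read 7.01, 7.25 and 7.30 against 5.49, 6.20 and 5.89 and fell by 1.33 (adjusted p = 0.00522 over all probe sets). Both probe sets thus went down, by different amounts. Its close paralogue Wnt5a was dim and did not pass, at 5.31, 4.96 and 5.23 against 5.11, 4.98 and 5.17 (interval of the difference -0.38 to 0.22).

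Wnt4 missed the threshold. Its levels were 8.12, 7.98 and 8.01 before hCG and 8.28, 8.51 and 8.43 after, without overlap but only 0.37 apart on average (interval 0.11 to 0.63, adjusted p = 0.0532). The other Wnt4 probe set differed by 0.61 in the same direction (adjusted p = 0.0661). Without the dimmest 1 in 3 genes, with array weights or with the mean of probe sets, Wnt4 passed (adjusted p = 0.0429, 0.039 and 0.0364). The remaining 15 ligands that did not pass differed by -0.17 to 0.24, and all 16 had 95% intervals within 1 log2 unit of 0. Brighter than the dim bound on average were, beside Wnt4, Wnt6 at 7.37 and 7.54, Wnt16 at 6.42 and 6.67, Wnt2b at 6.80 and 6.65, Wnt3a at 6.65 and 6.62, Wnt7a at 6.50 and 6.44 and Wnt7b at 6.63 and 6.48 (means at hCG-0h and hCG-6h). Wnt1, Wnt3, Wnt5a, Wnt8a, Wnt8b, Wnt9a, Wnt9b, Wnt10a and Wnt10b stayed below it in all samples.

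Frizzleds receive the Wnt signal at the cell surface, and of their 10 genes 4 rose, 1 fell and 5 did not pass (50% called, beside 21.3% of all genes). Fzd8 rose the most, from 7.85, 8.16 and 8.03 to 9.48, 9.39 and 10.02. Every hCG-6h sample was at least 1.23 above the highest hCG-0h sample, and the change was 1.62 ± 0.19 (SE), or 3.07-fold (adjusted p = 0.00148). A dim further probe set of Fzd8 differed by 0.50 and did not pass, so that the mean of its probe sets rose by 1.06. Fzd9 rose 2.69-fold, from 5.96, 6.15 and 5.73 to 7.16, 7.34 and 7.63 (1.43 ± 0.17, adjusted p = 0.00147). It was near the dim bound in the hCG-0h samples and above it in all hCG-6h samples.

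The rises of Fzd1 and Fzd7 were less secure. Fzd1 read 7.98, 6.71 and 7.07 at hCG-0h and 8.13, 8.75 and 8.50 at hCG-6h. The hCG-0h samples spread over more than 1 log2 unit, and hCG-0h sample 1 came within 0.15 of the lowest hCG-6h sample. The change was 1.21 ± 0.33 (adjusted p = 0.0451), and it passed without hCG-0h sample 1 (1.57) but in none of the fits without another sample (0.94 to 1.37). Fzd7 read 8.03, 8.63 and 8.30 and then 9.19, 9.16 and 8.77, a rise of 0.72 ± 0.19 (adjusted p = 0.039). It passed without hCG-0h sample 2 or hCG-6h sample 3 and in none of the other 4 such fits (adjusted p up to 0.113). A dimmer Fzd7 probe set differed by 0.00, and the mean of its probe sets gave 0.36 (adjusted p = 0.175).

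Fzd3, a receptor of axon guidance and cell polarity, fell. Its levels were 9.64, 9.62 and 9.62 before hCG and 8.87, 8.70 and 9.05 after, with hardly any spread at hCG-0h. The fall was by 0.75 ± 0.12 (SE), or 1.69-fold lower (adjusted p = 0.00514), and 2 of its 6 probe sets passed as lower while all 6 lay below 0 (-1.09 to -0.27). Among receptors that did not pass, Fzd5 stood at 9.62, 9.49 and 9.63 against 9.46, 9.39 and 9.71, overlapping and well above the dim bound (interval of the difference -0.35 to 0.23). Fzd4, the receptor tied to the corpus luteum, read 7.62, 7.40 and 7.74 against 6.62, 7.71 and 7.53, with hCG-6h sample 1 apart from the others. Its interval of -0.98 to 0.38 includes nearly 1 log2 unit downward, and its further probe sets gave -1.20 ± 0.50 (SE) and -0.05 ± 0.37, neither called. Fzd6 and Fzd2 differed by -0.40 and 0.19 with wide intervals (-1.20 to 0.41 and -0.52 to 0.89), and Fzd10 was dim.

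No Dickkopf gene passed, and neither did Wif1, which lay at 2.70 to 3.02 near the floor of the arrays. Dkk3, a divergent family member that does not act as a classical LRP inhibitor, read 8.68, 8.94 and 8.19 against 7.99, 8.11 and 7.73. Its groups did not overlap and differed by -0.66 (interval -1.16 to -0.16, adjusted p = 0.0702), and both of its probe sets lay below 0. With the mean of both probe sets, or without hCG-0h sample 3, Dkk3 passed as lower (adjusted p = 0.0186 and 0.0211). Dkk4 stood near the dim bound and differed by -0.34 (adjusted p = 0.105). Dkk1 and Dkk2, the LRP-binding inhibitors studied most, were dim in every sample, between 3.77 and 4.64, and differed by 0.08 and 0.17.

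**Figure D2:**
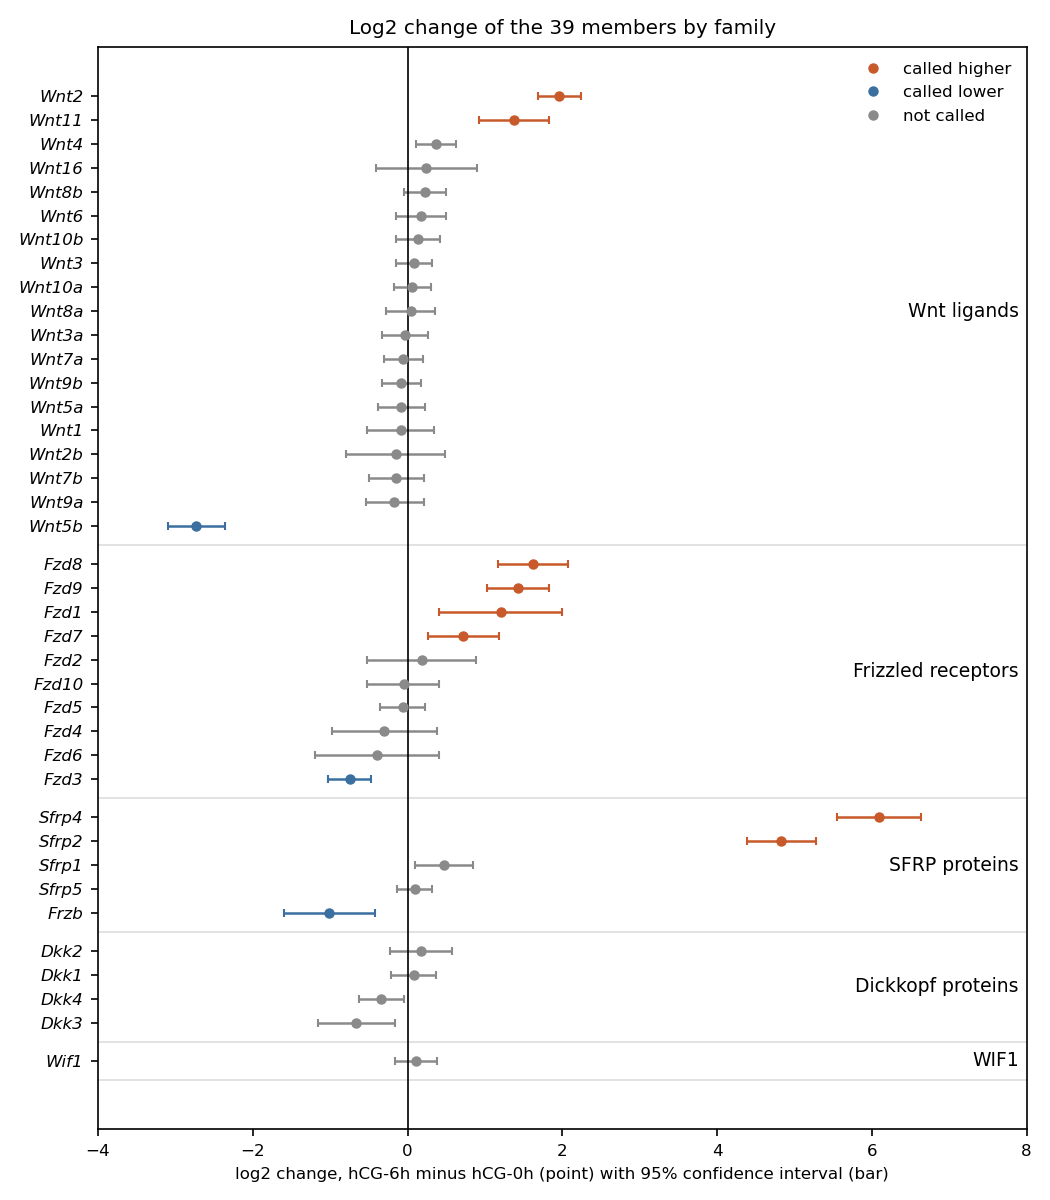
Log2 change from hCG-0h to hCG-6h (horizontal axis) of all 39 members, grouped by family, with 95% confidence intervals from limma. Orange members rose, blue members fell and grey members did not pass; most ligands cluster at 0, while Sfrp4 (6.09) and Sfrp2 (4.83) stand far to the right and Wnt5b (-2.73) to the left.

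More than 1 probe set was present for 23 of the 39 members, 76 probe sets in all. With every annotated probe set of the array tested on its own and p adjusted over all 34958, 13 of the 76 passed, beside 18.7% of all. They belonged to 10 members, the called ones without Fzd1 (adjusted p = 0.0521). No member had probe sets called in opposite directions. Sfrp4, Sfrp2, Wnt2, Wnt11 and Fzd9 have 1 probe set each, so no second probe set bears on their changes.

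**Figure D3:**
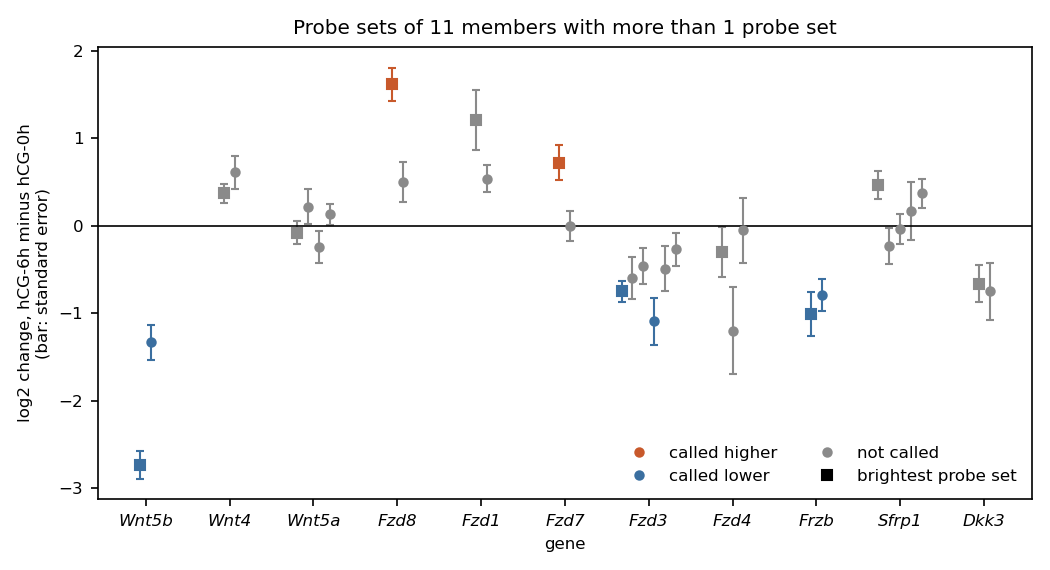
Log2 change (vertical axis, bars are SE) of each probe set of 11 members that have more than 1, with the brightest set of each gene as a square. Colours are calls with p adjusted over all 34958 probe sets, under which Fzd1 does not pass; both sets of Wnt5b and of Frzb fell, while the sets of Fzd7 (0.72 and 0.00) and of Sfrp1 differ.

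Sequences before the transcription starts were set beside these changes, because they are the stretches nearest to the start where factors of the pathway could bind. RefSeq's promoter table, on build GRCm38.p6, held 27 of the 39 members and 8 of the 11 that passed. It held no start of Sfrp4, Fzd8 or Fzd3, so the motif counts below leave these genes out. The 250 bases before the start, 5′ to 3′ on the gene's strand, are shown for members in that table that changed by at least 1 on the log2 scale, at the outermost start where several are listed. Capitals mark matches on either strand to the TCF/LEF cores CTTTGA and CTTTGT, to the CRE core TGACG bound by CREB factors, and to the AP-1 motif TGANTCA.
Sfrp2, chr3:83766071-83766320, plus strand: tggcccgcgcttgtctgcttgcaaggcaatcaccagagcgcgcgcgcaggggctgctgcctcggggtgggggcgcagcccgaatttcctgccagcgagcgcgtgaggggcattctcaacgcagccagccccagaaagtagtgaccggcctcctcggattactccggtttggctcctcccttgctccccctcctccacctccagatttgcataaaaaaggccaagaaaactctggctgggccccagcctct
Wnt2, chr6:18030446-18030695, minus strand: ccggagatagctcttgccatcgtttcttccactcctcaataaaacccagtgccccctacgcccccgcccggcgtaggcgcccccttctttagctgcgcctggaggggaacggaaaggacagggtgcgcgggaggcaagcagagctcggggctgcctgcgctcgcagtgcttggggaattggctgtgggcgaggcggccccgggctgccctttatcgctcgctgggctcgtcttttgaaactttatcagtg
Fzd9, chr5:135251048-135251297, minus strand: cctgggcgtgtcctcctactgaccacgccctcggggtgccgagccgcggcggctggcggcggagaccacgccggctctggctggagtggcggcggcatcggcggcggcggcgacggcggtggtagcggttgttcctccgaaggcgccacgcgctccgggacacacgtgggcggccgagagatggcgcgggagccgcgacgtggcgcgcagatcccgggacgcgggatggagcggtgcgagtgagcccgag
Wnt11, chr7:98834862-98835111, plus strand: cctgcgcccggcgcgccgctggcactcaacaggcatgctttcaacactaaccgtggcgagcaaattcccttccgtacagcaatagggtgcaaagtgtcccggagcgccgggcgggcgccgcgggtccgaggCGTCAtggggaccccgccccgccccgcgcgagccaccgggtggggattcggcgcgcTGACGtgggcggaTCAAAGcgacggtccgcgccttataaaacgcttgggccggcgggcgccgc
Fzd1, chr5:4758217-4758466, minus strand: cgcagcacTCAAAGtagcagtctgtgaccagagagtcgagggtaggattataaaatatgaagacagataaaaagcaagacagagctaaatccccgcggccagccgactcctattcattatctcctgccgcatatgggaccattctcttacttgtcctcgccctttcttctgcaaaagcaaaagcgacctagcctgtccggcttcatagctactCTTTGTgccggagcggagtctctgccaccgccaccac
Wnt5b, chr6:119544348-119544597, minus strand: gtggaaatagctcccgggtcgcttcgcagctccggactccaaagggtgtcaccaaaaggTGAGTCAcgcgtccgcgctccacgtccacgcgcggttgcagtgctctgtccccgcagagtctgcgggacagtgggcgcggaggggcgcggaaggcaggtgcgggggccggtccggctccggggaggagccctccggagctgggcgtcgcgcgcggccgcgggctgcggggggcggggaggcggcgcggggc
Frzb, chr2:80447397-80447646, minus strand: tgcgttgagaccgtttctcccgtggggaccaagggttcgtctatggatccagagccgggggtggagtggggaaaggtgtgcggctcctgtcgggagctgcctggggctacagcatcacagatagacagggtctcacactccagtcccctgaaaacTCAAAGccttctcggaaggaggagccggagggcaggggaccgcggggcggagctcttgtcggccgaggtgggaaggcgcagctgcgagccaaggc
Wnt11 held a match to CTTTGA at 50 to 45 bases before its start and matches to TGACG at 119 to 115 and 63 to 59 bases. Fzd1 held both TCF/LEF cores, at 242 to 237 and 37 to 32 bases, and Frzb held CTTTGA at 95 to 90 bases. The outermost Wnt5b start held the AP-1 motif at 191 to 185 bases, and another of its 3 listed starts held CTTTGA at 71 to 66 bases. No match to these motifs was found in the windows of Sfrp2, Wnt2 and Fzd9. Also not printed were Fzd7, with CTTTGT at 129 to 124 bases, and a further Wnt11 start, with TGACG at 171 to 167 bases. Over the 11 listed starts of called members, 5 held a TCF/LEF core, against 27.6% of all 32851 starts in the table and 8 of 30 starts of all members. TGACG was found at 2 of the 11 starts, both of Wnt11 (17.8% of all starts), TGANTCA at 1 (6.75%) and the full CRE, TGACGTCA, at 0 (1.55%). The GC box GGGCGG, left in lower case, was found at 7 of the 11 starts and at 22 of the 30 starts of all members, against 32.7% of all starts. Such matches describe the letters only.

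Genes of the wider pathway were counted in 7 lists, 140 genes in all, of which 23 rose and 14 fell (26.4% called, beside 21.3% of all genes). In the fit without dim genes, 38 of 121 pathway genes passed, beside 3828 of 12125 of all genes. All 7 lists were chosen with earlier results of these data known, so their shares only describe the genes picked. Of the 140, 6 stand in more than 1 list and are counted in each, among them Apcdd1 and Lef1. Also among the 140 are 2 members described above, Wnt11 and Dkk1, both in the list of targets. In the list of co-receptors and alternative receptors 3 of 15 rose and 1 fell (26.7% called, beside 21.3% of all genes), with a median change of 0.18. Only 1 of the 15 was dim on average, and of all brighter genes 29.2% were called. Sdc1, a heparan sulfate proteoglycan that helps Wnts reach receptors, went from 10.59, 10.43 and 10.48 to 13.43, 13.37 and 13.42 (7.5-fold, adjusted p = 1.49e-05). Kremen1, a receptor for Dickkopf proteins, rose by 0.81 and the glypican Gpc4 by 0.79. Lrp5 fell by 0.72 (adjusted p = 0.00986), from 10.91, 11.08 and 11.01 to 10.47, 10.06 and 10.30, whereas Lrp6 stood at 11.65 in both groups (interval of the difference -0.30 to 0.29).

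Of 9 R-spondin, LGR and receptor-clearing ligase genes, 1 fell and none rose (11.1% called, beside 21.3% of all genes, median -0.10). The 1 was Lgr6, an R-spondin receptor, at 7.59, 7.66 and 7.43 and then 5.78, 6.31 and 6.23 (adjusted p = 0.00126). It dropped by 1.45, to around the dim bound. With the mean of probe sets 3 of these genes passed, 1 as higher and 2 as lower. Among 17 genes of Wnt secretion and other extracellular inhibitors, 4 rose and 1 fell (29.4% called, beside 21.3% of all genes, median 0.17). Igfbp4, an IGF-binding protein that also hinders Wnt signalling, rose 14.7-fold, from 7.83, 8.72 and 8.10 to 11.93, 12.19 and 12.15. Apcdd1, a membrane inhibitor of Wnts, rose 4.88-fold, from 8.84 ± 0.55 to 11.13 ± 0.04 (SD, n = 3 each). Its probe set carries the suffix, described above for Wnt5b, of sets with probes that can also bind other transcripts. The cargo receptors Tmed2 and Tmed10 went opposite ways, by 0.80 and -0.80. Without hCG-0h sample 2, hCG-0h sample 3, hCG-6h sample 1 or hCG-6h sample 3 only 3 of the 17 rose and none fell.

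Downstream of the receptors, 1 of 24 Dishevelled and destruction complex genes rose and 1 fell (8.33% called, beside 21.3% of all genes, median 0.12). None of the 24 was dim on average. Tnks, a tankyrase that promotes the breakdown of axin, was 2.99-fold lower (adjusted p = 0.000142), and Frat2, an inhibitor of the kinase GSK3, rose by 0.82. Ctnnb1, which encodes beta-catenin, read 12.57, 12.55 and 12.59 against 12.61, 12.61 and 12.65, bright and with an interval of the difference of -0.16 to 0.27. The count of called genes in this list moved to 2 and 3 with a trend and robust variance and to 5 and 2 with the mean of probe sets (higher and lower). Of 20 TCF/LEF factors and nuclear partners, 5 rose and 3 fell (40% called, beside 21.3% of all genes, median 0.10). Sox9, a factor that can restrain beta-catenin, rose 11.3-fold from a dim 5.26 ± 0.35 to 8.75 ± 0.03. The co-repressor Tle3 and the co-activator Pygo2 rose by 1.35 and 1.04, and Parp1 fell by 0.93. Lef1 rose by 0.53 ± 0.15 with an adjusted p of 0.0479, a call kept under only 3 of the 14 other settings. It was lost in 5 of the 6 fits without a sample, and with a replicate block, trend and robust variance, either other scaling, the mean of probe sets or hCG-6h sample 1 alone (adjusted p from 0.0536 to 0.292 over all the lost calls). With the mean of probe sets 4 genes of this list rose and none fell.

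Of 27 beta-catenin target and feedback genes, 8 rose, 3 fell and 16 did not pass (40.7% called, beside 21.3% of all genes, median 0.24). Like the other lists, it was chosen with earlier results of these data known, so the share only describes the genes picked. The largest rises were those of Plaur, the urokinase receptor, Cd44, the hyaluronan receptor, Nrcam, a cell adhesion molecule, and the AP-1 factor Fosl1, by 4.50, 3.67, 3.65 and 2.73. Myc, a growth-promoting transcription factor and a classical target, fell from 11.93, 11.93 and 12.09 to 9.51, 9.53 and 9.75 (5.23-fold lower, adjusted p = 4.94e-05). The cell division gene Birc5 and the activin antagonist Fst fell by 0.46 and 0.41. Genes of this list also respond to other pathways. Axin2, the feedback gene most often read as a sign of beta-catenin activity, stood at 7.76, 7.88 and 6.76 and then at 7.84, 8.65 and 8.11. The groups overlapped, with hCG-0h sample 2 just above hCG-6h sample 1, hCG-0h sample 3 lay about 1 unit under the other hCG-0h samples, and the difference of 0.73 did not pass (interval -0.08 to 1.55, adjusted p = 0.192). The mean of its probe sets passed narrowly (adjusted p = 0.0495).

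Polarity and calcium genes went both ways, with 4 of 34 higher and 4 lower (23.5% called, beside 21.3% of all genes, median 0.15). Daam2, a formin bound by Dishevelled, and Prickle1 fell by 1.39 and 1.25, and Map3k7, the kinase TAK1, by 1.23. Celsr1, a cadherin of planar polarity, rose from 6.26, 6.56 and 6.74 to 7.79, 7.25 and 8.16 (2.32-fold, adjusted p = 0.0148). Without hCG-0h sample 1 the counts were 1 higher and 2 lower, and without hCG-6h sample 1 or 3 they were 2 and 3.

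**Figure D4:**
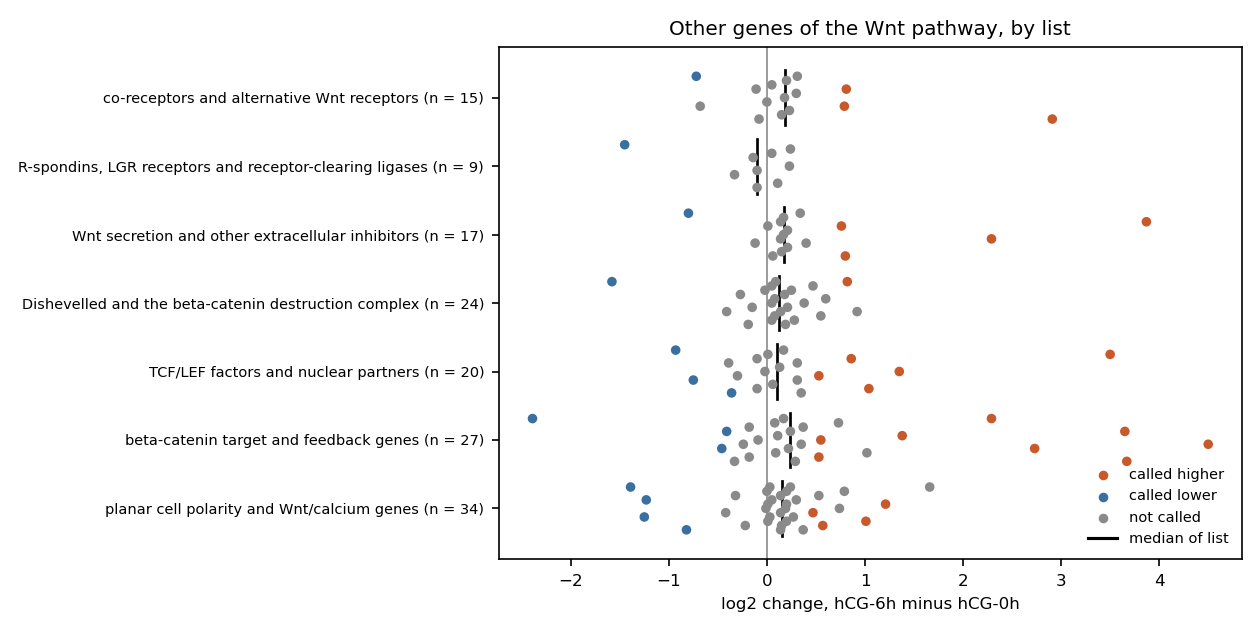
Log2 change from hCG-0h to hCG-6h (horizontal axis) of each measured gene in 7 lists of Wnt pathway genes, with the number measured beside each name and the list median as a black line. Points are shifted up or down only to keep them apart; the medians lie between -0.10 and 0.24, and the largest changes are the rises of Plaur (4.50) among target genes and of Igfbp4 (3.87) among secretion and inhibitor genes.

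Under the other settings, 7 of the 11 called members kept their call throughout, namely Sfrp4, Sfrp2, Wnt2, Wnt11, Wnt5b, Fzd8 and Fzd9. This also holds with hCG-6h sample 1 alone, the sample whose description gives 6 h, where the lone sample is assumed to vary like the hCG-0h samples. There, 6 members rose and 1 fell, and the calls of Frzb, Fzd1, Fzd3 and Fzd7 were lost (adjusted p = 0.291, 0.398, 0.0534 and 0.144).

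**Figure D5:**
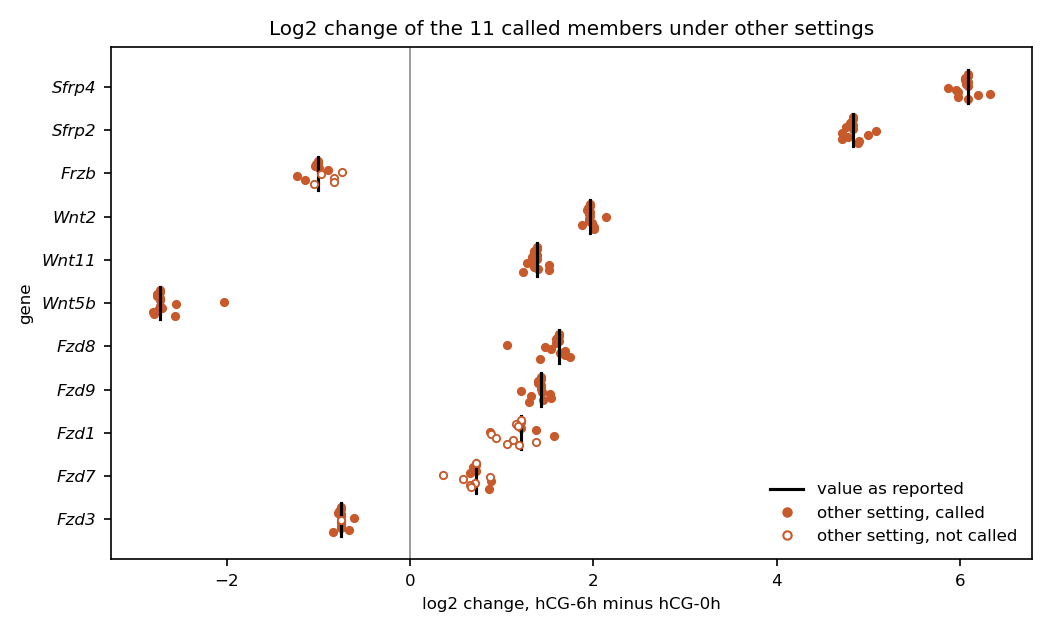
Log2 change (horizontal axis) of the 11 called members as reported (black line) and under up to 14 other settings (circles, filled where adjusted p stayed under 0.05). All circles of a gene lie on the same side of 0; open circles occur for Fzd1, Fzd7 and Frzb, and for Fzd3 with hCG-6h sample 1 alone.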

How the data were processed

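RNA was amplified with a NuGEN kit before hybridisation, per the labels' protocols. The deposited log2 values of 45101 probe sets are the authors' own, and RMA is given per the submitters' processing notes, beside GCOS and Affymetrix Expression Console 1.1; RMA combines background correction, quantile normalisation and probe set summary. No detection calls or genome build are given in the sources used here. Of the probe sets, 34958 had 1 symbol, 932 several and 9211 none in the platform annotation, and only the first were used. All 39 members' gene identifiers and symbols matched the RefSeq gene table.

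Group was the only term of the model that limma (version 3.58.1, under R version 4.3.3) fitted to all 6 samples, with moderated two-sided tests and Benjamini-Hochberg adjustment over 18194 genes at a threshold of 0.05. The fit was tested on simulated data. The number of arrays limits the precision, with a median SE of 0.146. Members, lists and motifs were chosen with earlier results of these data known. Named are all called members, up to 4 called genes of each list with the largest changes, Axin2, Ctnnb1 and Lef1. Further genes (Lrp6, Myc, Birc5, Fst and the cell type markers) were named after their values were seen.

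Alternatives tried were a block for the sample number, trend and robust variance, repeated quantile normalisation, median centring, no dim genes, array weights, the mean of probe sets, hCG-6h sample 1 alone and each sample left out.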

Additional observations from a re-analysis of the deposited data

How the results depend on the processing

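The number of called members was 7 with hCG-6h sample 1 alone in place of 11, that of pathway list genes 23 in place of 37, and that of all genes 1577 in place of 3874; that fit has fewer samples. Leaving out 1 sample at a time, 8 to 11 members, 27 to 34 pathway genes and 2920 to 3211 of all genes passed. Under the remaining settings 10 to 12 members passed. No member that was called changed sign. Fzd1 was not called with repeated quantile normalisation or median centring (adjusted p = 0.0564 and 0.0516), where the median change of all genes was -0.0194 and -0.025; the cause was not tested. Fzd6 passed without hCG-0h sample 2 alone (adjusted p = 0.048), and Frzb was not tested where dim genes were left out.

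Whether equal sample numbers pair the samples across groups cannot be told from 3 samples per group. Deviations from the group means correlated by 0.0113, -0.0157 and 0.0286 between equal numbers, and not every sample correlated best with its own number. With the sample number as a replicate block, 11 members again passed, 9 of them the same, with Fzd1 and Fzd7 lost (adjusted p = 0.1 and 0.0566) and Dkk3 and Sfrp1 gained (adjusted p = 0.0298 and 0.046); 3264 of all genes and 32 pathway genes passed.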
